A study of Mus musculus with 6 samples.

Results

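Cadherins are calcium-dependent adhesion proteins whose extracellular repeats bind partners on neighbouring cells. Their genes and those of the related protocadherins, Fat, Dachsous and Celsr proteins were taken from the deposited table by gene symbol, 102 rows of 22322. The set held 18 classical cadherins (5 of type I and 13 of type II), 5 other cadherins, 58 clustered protocadherins, 12 other protocadherins and 9 Fat, Dachsous and Celsr genes. All libraries came from wild-type (WT) mouse neural stem progenitor cells, cells that renew themselves and can form neurons and glia. In the PTN group the cells were collected 24 h after treatment with PTN, and in the Control group 24 h after PBS, with 3 libraries in each. PTN is not spelled out in the labels and is read here as pleiotrophin, a secreted growth factor, and its amount is not stated there. The labels do not say if the replicates are separate cultures, so the p-values cover only the spread between these libraries, which may be technical.

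Classical cadherins join cells at adherens junctions and bind catenins inside the cell, and N-cadherin (Cdh2) holds radial glia together at the ventricular surface. The clustered protocadherins are encoded by the adjoining alpha, beta and gamma gene clusters. Each neural cell uses a small choice of their promoters, and the resulting proteins bind like to like and serve self-recognition of neurites. Fat and Dachsous proteins bind each other across cells, and Celsr proteins belong to the core of planar cell polarity.

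Libraries held 19267764 to 26341745 expected counts, of which the 102 genes took between 0.482% and 0.664%. All 15 markers of neural stem and progenitor cells passed the filter, with summed levels of 8170 to 9240 CPM (TMM-scaled library-size-normalised counts, called CPM throughout) in Control and 11000 to 12000 CPM in PTN. Vim alone was at means of 3450 CPM in Control and 5160 CPM in PTN. Of the 15 markers Vim and Egfr were called higher and Hes5 lower, beside 4.93% and 3.06% of all genes tested. At an unadjusted p under 0.05 in edgeR, 3 were higher and 2 lower, beside 1938 and 1611 of all 13161 genes tested. The 2 lower markers were Hes5 and Msi1. The glial genes Slc1a3 and Fabp7 were at 1670 and 1700 CPM in Control, and Sox2 at 166 CPM. Markers of other cell types also differed between the groups. The 7 astrocyte markers summed to between 8300 and 8580 CPM in Control and between 2700 and 5970 CPM in PTN, with Gfap and Aldoc called lower. Gfap was at means of 3650 CPM in Control and 813 CPM in PTN, and Aldoc at 1260 and 303 CPM. Aqp4 was at means of 349 and 412 CPM and Gja1 at 299 and 393 CPM, with overlapping groups. At an unadjusted p under 0.05 in edgeR, 3 astrocyte markers were lower and 1, S100b, was higher, beside 1611 and 1938 of all genes. The 10 fibroblast and meningeal markers summed to between 103 and 126 CPM and between 38.1 and 50 CPM. Most of the Control sum came from Pdgfra, which is also in the list of the oligodendrocyte lineage. Pdgfra was at 81.6, 102 and 103 CPM in Control and at 25.5, 36.4 and 11.3 CPM in PTN. Pdgfra, Pdgfrb and Col3a1 were called lower and Foxc1 higher. The 8 neuron markers summed to between 288 and 428 CPM and between 390 and 656 CPM, most of it from Map2. Gap43 was called higher. At an unadjusted p under 0.05 in edgeR, 3 neuron markers were higher and 1, Tubb3, was lower, beside 1938 and 1611 of all genes. The 8 markers of the oligodendrocyte lineage summed to between 1320 and 1510 CPM and between 1130 and 1500 CPM, with Cspg4 and Pdgfra called lower. No marker in these lists was at 0 in all libraries. Of 6 microglia markers 1 was tested, and of 6 markers of ependyma and choroid plexus 3, and none was called. Tmem212, in the second of these lists, was at 0 in all libraries. Ttr, in the same list, was at 0.338, 0.65 and 2.11 CPM in Control and at 1.55, 1.69 and 15.8 CPM in PTN. The part of such cells in the results was not tested, and in bulk RNA a change in cell numbers and a change in RNA per cell cannot be told apart.

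In PTN cells 8 protocadherin beta genes and the alpha gene Pcdhac2 were higher, the non-clustered protocadherins Pcdh9 and Pcdh19 and the cadherins Cdh6 and Cdh13 were higher, and no member of the family was called lower. Of the 102 genes, 79 had a count of at least 10 in at least 3 libraries and 78 passed the filter for testing. By edgeR's quasi-likelihood test, 13 of these 78 were called higher in PTN at an adjusted p under 0.05, or 16.7%, beside 4.93% of all 13161 genes tested. None was called lower, beside 3.06% of all genes, and calls in either direction made up 7.99% of all genes. At an unadjusted p under 0.05, 30 members were higher and 3 lower, beside 1938 and 1611 of all 13161 genes tested. DESeq2 called 17 members higher and 1 lower, beside 1087 and 765 of the 17167 genes in its fit. That fit was not limited to the 78 members and 13161 genes that passed the filter, so its shares are not like those of edgeR. Limma-voom called 14 higher and 0 lower, beside 610 and 439 of 13161. The median log2 fold change (PTN minus Control) was 0.44 over the tested members and 0.03 over all genes tested. A member can pass the filter through the group in which it is high, so these counts describe the tested members and not the whole family. When a Control library was left out, the number of members called higher was 1 without replicate 1, 4 without replicate 2 and 1 without replicate 3. When a PTN library was left out it was 6, 12 and 25 in that order, and 2 members were called lower without PTN 3. In the same fits the share of all genes called higher was 1.62%, 1.74% and 1.51% without a Control library and 2.66%, 5.01% and 9.56% without a PTN library.

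**Figure D1:**
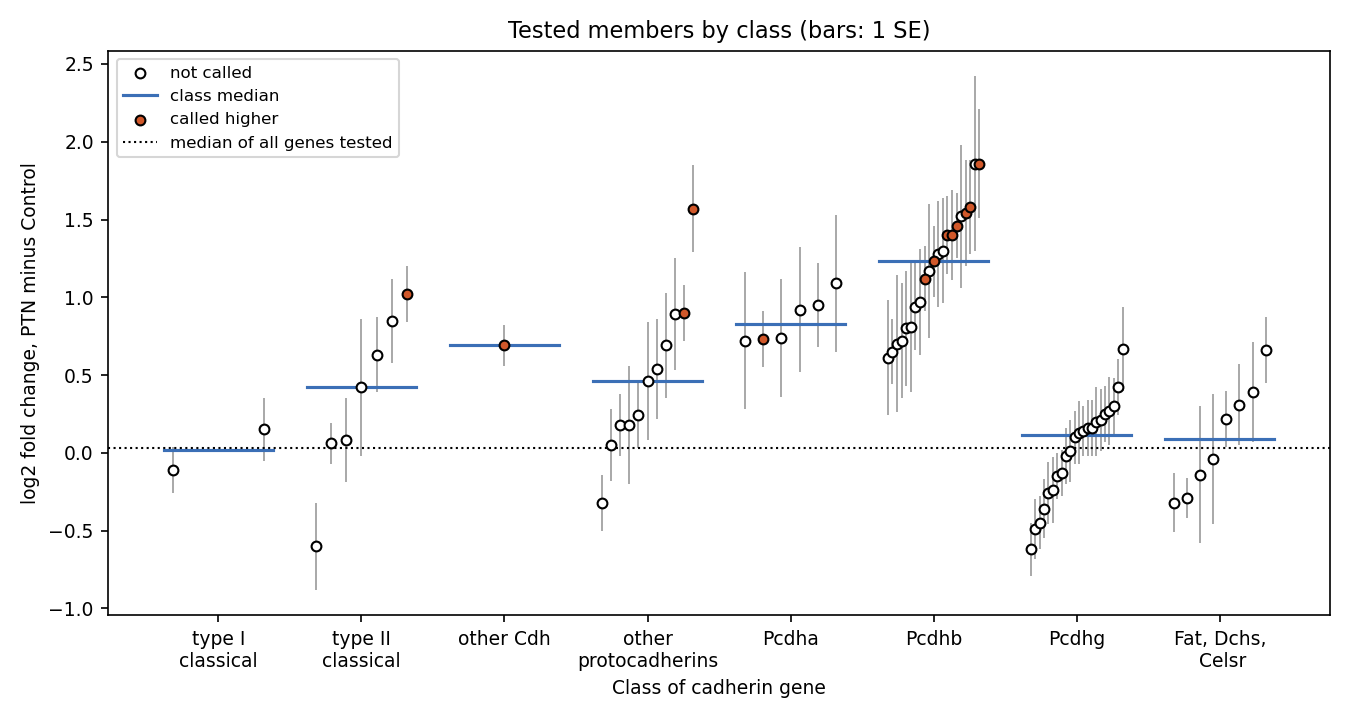
Log2 fold change (PTN minus Control, y axis) of the 78 tested members by class, with 1 SE as bars, the class median as a blue line and the median of all 13161 genes tested (0.03) as a dotted line. Filled points are the 13 genes called higher; all 21 beta genes lie above 0 with a median of 1.23, whereas the gamma genes straddle 0 with a median of 0.12.

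Transcript length moved with the fold changes. Over all tested genes the median log2 fold change went from -0.23 in the eighth with the shortest transcripts to 0.31 in the eighth with the longest, and tested members had a median length of 4716 bases against 2777 for all tested genes. With a length trend removed from each library, 10 members were called higher and 2 lower, and their median was 0.24 against -0.02 for all genes. That fit is given below wherever it ended a call.

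Among the type I cadherins only Cdh2 and Cdh4 were expressed above the filter. Cdh2, which encodes N-cadherin, had the highest level of all classical cadherins, with FPKM values of 92.6, 115 and 108 in Control 1, Control 2 and Control 3 and of 95.3, 108 and 88.1 in PTN 1, PTN 2 and PTN 3. The groups overlapped, and the value of -0.11 ± 0.15 (SE) for the log2 fold change had a 95% interval from -0.46 to 0.23 (edgeR adjusted p = 0.641). Cdh4, the gene of retinal R-cadherin, was at 33.2, 28.8 and 33.8 FPKM in the Control libraries and at 33.3, 26.7 and 45.5 FPKM in the PTN libraries. Its 95% interval ran from -0.32 to 0.61 on the log2 scale (edgeR adjusted p = 0.651), and PTN 3 alone lay above every Control library. The gene of epithelial E-cadherin, Cdh1, had 0 to 5 counts per library and Cdh3, the P-cadherin gene, 0 to 2 counts. Cdh15, the muscle cadherin gene, reached the count minimum in the Control libraries (10, 13 and 11 counts, against 4, 1 and 6 in PTN) but not the filter for testing.

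Of 7 tested type II cadherins 1 was called higher and none lower, beside 4.93% and 3.06% of all genes. Cdh6, known as K-cadherin from kidney and also a gene of restricted territories in the embryonic forebrain, rose 2.03-fold. Its FPKM values were 2.82, 3.43 and 3.31 in Control and 7.8, 5.43 and 6.08 in PTN. Every PTN library lay above every Control library, and the log2 fold change was 1.02 ± 0.18 (SE, n = 3 each, edgeR adjusted p = 0.0127). The adjusted p was 0.0567 without Control 1 and 0.0644 without Control 3. Cdh11, the cadherin of mesenchyme and also of developing brain, did not overlap between groups either (5.09, 8.2 and 7.17 against 11.7, 16.6 and 8.45 FPKM) but was not called (edgeR adjusted p = 0.0875, and 0.0202 by DESeq2, which called it). Over all genes tested, 15.8% had every PTN value above every Control value.

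The other tested type II genes were not called, and their groups overlapped in CPM. Cdh20 was the steadiest and highest of them, at 27.9, 29.6 and 28.8 FPKM in Control and at 29.6, 31.4 and 28.6 FPKM in PTN, with a 95% interval for its log2 fold change from -0.23 to 0.35. In Control the FPKM ranges of Cdh20 and Cdh4 overlapped, as did those of the next in order, Cdh19, Cdh22 and Cdh10. Cdh19, a cadherin of Schwann cell precursors and glia, ranged over 9.14 to 21.4 FPKM in Control and over 9.04 to 29.9 FPKM in PTN, with PTN 3 the lowest of all. Cdh22 was at 16.4, 12.2 and 14.8 FPKM against 20.7, 16.5 and 29.7 FPKM (edgeR adjusted p = 0.142), so that its groups were just apart on the FPKM scale. Cdh24, at means of 1.36 and 0.897 FPKM, was the only tested type II gene with a negative log2 fold change, -0.6 ± 0.28 (SE, edgeR adjusted p = 0.201).

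Type II genes under the filter had few counts. Cdh18 had 8, 8 and 7 counts in Control and 3, 2 and 1 in PTN. Cdh5, which encodes the VE-cadherin of blood vessel endothelium, had 1, 2 and 4 counts in Control and 8, 11 and 16 in PTN. Of 5 other tested endothelial markers edgeR called none, with 1 higher and 1 lower at an unadjusted p under 0.05, while DESeq2 called Kdr higher and Flt1 lower and limma-voom called Flt1 alone. The list of 10 such markers summed to between 41.3 and 48.8 CPM in Control and between 17.6 and 32.2 CPM in PTN, most of it from Flt1. Cdh7, Cdh8, Cdh9 and Cdh12 stayed at 14 counts or fewer in every library.

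Cdh13 encodes T-cadherin, a cadherin without an intracellular part that is held in the membrane by a lipid anchor. It was second in level to Cdh2 among genes named Cdh in Control, at 77, 69.8 and 71 FPKM, and reached 113, 119 and 118 FPKM in PTN. The 3 PTN libraries lay close together and above all Control libraries, 1.62-fold higher with a log2 fold change of 0.69 ± 0.13 (SE, n = 3 each, edgeR adjusted p = 0.0169). The adjusted p was 0.0584, 0.106 and 0.135 without Control 1, Control 2 and Control 3, and 0.0502 with the length trend removed. The remaining cadherins Cdh16, Cdh17, Cdh23 and Cdh26 did not pass the filter, each having at most 17 counts in a library.

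**Figure D2:**
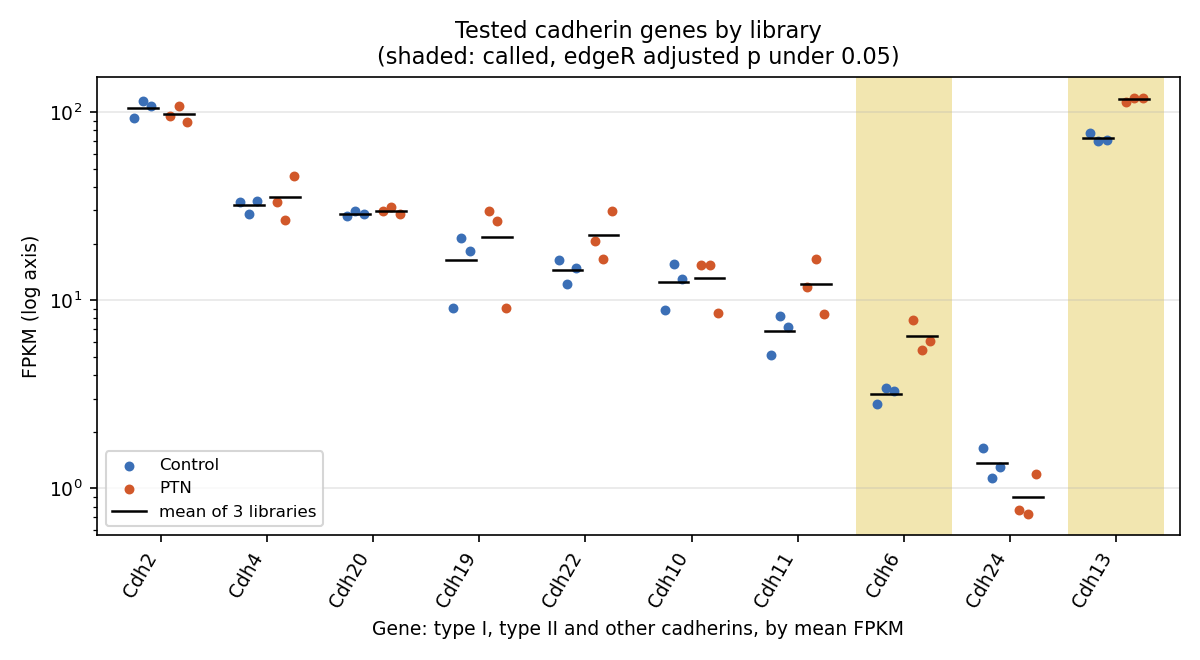
FPKM on a log axis of the 10 tested genes named Cdh in each Control (blue) and PTN (orange) library, with the group mean as a black line, and shading where a gene was called. Cdh13 (69.8 to 77 FPKM in Control, 113 to 119 FPKM in PTN) and Cdh6 separate by group, and Cdh2 and Cdh20 do not.

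Among the protocadherins outside the clusters, 2 of 11 tested were called higher and none lower, and 10 of 11 had a positive log2 fold change, beside 4.93% called higher and 52.5% positive over all genes. With the length trend removed 7 of 11 were positive, the median went from 0.46 to 0.1, and 1 was called higher and 1 lower. Pcdh9, a delta-1 protocadherin, a group with conserved motifs in the intracellular part, had the largest change of these genes. Its levels were 11.7, 19 and 17.3 FPKM in Control 1, Control 2 and Control 3 and 48.2, 61.4 and 31.5 FPKM in PTN 1, PTN 2 and PTN 3. Pcdh9 thus ranked below Pcdh1 and Pcdh10 by mean FPKM in Control (16 against 20.9 and 19) and above both in PTN (47 against 21.4 and 21). It rose 2.96-fold, with 1.57 ± 0.28 (SE, n = 3 each) on the log2 scale (edgeR adjusted p = 0.0133). The adjusted p was 0.058 without Control 1 and 0.0547 without Control 3.

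Pcdh19, an X-linked delta-2 protocadherin gene whose human counterpart is mutated in an epilepsy that mainly affects females, was 1.86-fold higher. Its FPKM values were 0.98, 1.13 and 1.27 in Control and 2.29, 1.83 and 1.97 in PTN, without overlap (0.9 ± 0.18 SE on the log2 scale, n = 3 each, edgeR adjusted p = 0.0203). The adjusted p was 0.086, 0.0946, 0.072 and 0.0662 without Control 1, Control 2, Control 3 and PTN 1, 0.0863 with the length trend removed and 0.0616 by limma on FPKM. Pcdh11x, also X-linked, was at 0.72, 1.49 and 1.45 FPKM in Control and at 2.94, 2.53 and 1.12 FPKM in PTN. It had an almost equal log2 fold change (0.89 ± 0.36, SE), but PTN 3 lay within the Control range and the gene was not called (edgeR adjusted p = 0.16). Summed levels of the Y-linked genes Uty, Kdm5d, Eif2s3y and Ddx3y came to 49.3, 102 and 80.3 CPM in Control and to 30.3, 74.2 and 7.94 CPM in PTN. The part of a differing sex of the cells in the values of these X-linked genes was not tested.

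The remaining protocadherins outside the clusters were not called. Pcdh1 (95% interval of the log2 fold change -0.46 to 0.57), Pcdh7 (-0.25 to 0.72) and Pcdh10 (-0.27 to 0.64) were expressed at means of 10.6 to 21.4 FPKM, and Pcdh10 was highest in PTN 2. Pcdh17 was the only one with a negative log2 fold change, -0.32 ± 0.18 (SE, edgeR adjusted p = 0.283), and with the length trend removed it was called lower (-0.71, edgeR adjusted p = 0.0176). Pcdh17 is named for this value and not by the naming rule. Pcdh18 was at 1.23, 1.1 and 1.27 FPKM in Control and at 2.24, 0.88 and 2.3 FPKM in PTN, PTN 2 being the lowest of all. Pcdh8, Pcdh15 and Pcdh20 had group means between 0.553 and 1.46 FPKM, with overlapping groups. Pcdh12, a vascular protocadherin gene, had at most 2 counts in a library.

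The promoters of Pcdh9, Cdh6 and Pcdh19 are shown because these called genes lie outside the clusters and were matched in RefSeq's promoter windows (GRCm38.p6), as were 29 of the 101 symbols of the family. Each window has 300 bases around an annotated start (for Pcdh9, which has a second, largely overlapping window in the table, the first listed), written 5′ to 3′ on the gene's minus strand: chr14:93890630-93890929 for Pcdh9, chr15:13173626-13173925 for Cdh6 and chrX:133688944-133689243 for Pcdh19. Capitals mark the GC box GGGCGG on either strand (CCGCCC on the other).
Pcdh9: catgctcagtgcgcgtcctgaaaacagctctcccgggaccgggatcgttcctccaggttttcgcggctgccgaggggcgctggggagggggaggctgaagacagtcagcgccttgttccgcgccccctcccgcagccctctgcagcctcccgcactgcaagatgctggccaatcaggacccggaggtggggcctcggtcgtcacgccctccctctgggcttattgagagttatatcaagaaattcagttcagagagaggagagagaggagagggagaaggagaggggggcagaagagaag
Cdh6: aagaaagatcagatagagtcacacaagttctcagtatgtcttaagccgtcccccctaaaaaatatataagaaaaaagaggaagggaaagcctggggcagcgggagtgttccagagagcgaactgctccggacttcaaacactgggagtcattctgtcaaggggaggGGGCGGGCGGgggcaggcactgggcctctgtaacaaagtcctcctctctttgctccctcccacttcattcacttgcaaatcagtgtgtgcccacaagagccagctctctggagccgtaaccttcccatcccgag
Pcdh19: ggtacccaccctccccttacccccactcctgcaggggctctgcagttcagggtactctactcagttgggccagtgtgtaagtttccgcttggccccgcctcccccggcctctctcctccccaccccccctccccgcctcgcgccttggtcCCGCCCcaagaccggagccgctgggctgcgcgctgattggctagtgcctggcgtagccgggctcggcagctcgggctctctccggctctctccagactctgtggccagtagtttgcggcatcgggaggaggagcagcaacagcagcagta
The Cdh6 window holds 2 overlapping GC boxes, that of Pcdh19 holds 1 and that of Pcdh9 none. GC content was 62.7%, 53% and 67.7% for Pcdh9, Cdh6 and Pcdh19. GGGCGG was found in 11 of the 32 windows of the family, or 34.4%, and in 35.7% of all 32851 windows of that length. The E-box CAGGTG, searched on both strands, a sequence bound by the Snail and Zeb repressors of cadherin genes, does not occur in these 3 windows. It was found in 7 of the 32 windows, or 21.9%, and in 20.2% of all windows.

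**Figure D3:**
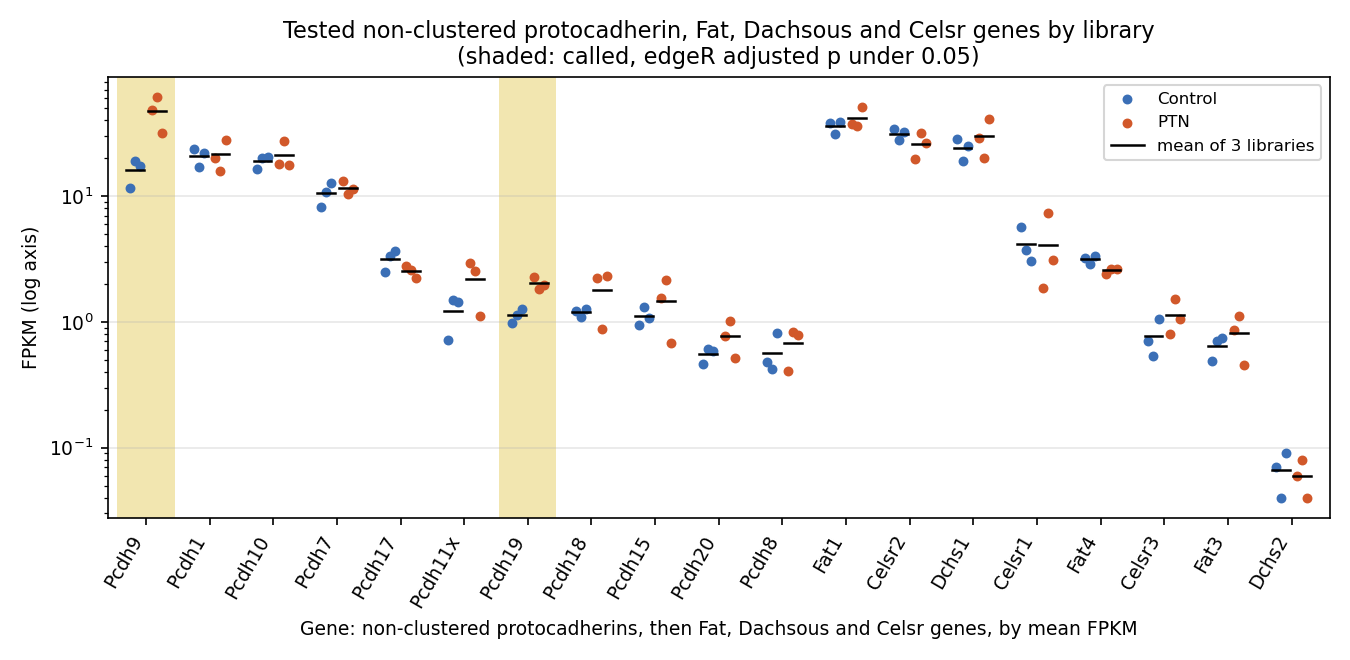
FPKM on a log axis of the 11 tested protocadherins outside the clusters and the 8 tested Fat, Dachsous and Celsr genes in each Control (blue) and PTN (orange) library, with group means as black lines and shading where a gene was called. Pcdh9 stands at 31.5 to 61.4 FPKM in PTN against 11.7 to 19 FPKM in Control, and no Fat, Dachsous or Celsr gene is shaded.

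The clustered protocadherins lie on chromosome 18 in GENCODE's annotation of GRCm38, and each cluster is a row of neighbouring genes. Every alpha and every gamma gene spans from its own first exon to shared last exons, whereas a beta gene has its coding sequence in 1 exon of its own. The deposited counts carry this structure. Fractional values (more than 0.005 from a whole number) made up 85.7% of the alpha and 98.5% of the gamma values, but 9.09% of the beta values, all of them from the overlapping neighbours Pcdhb21 and Pcdhb22. No count of the cadherins or of the other protocadherins was fractional. The sources used here do not give how reads of the shared exons were divided, so single alpha and gamma values are uncertain and the sums over a cluster, which have no test, are given first.

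The 22 beta genes together took 38, 50.4 and 45.4 CPM in Control 1, Control 2 and Control 3 and 112, 111 and 74.8 CPM in PTN 1, PTN 2 and PTN 3. The PTN mean was 2.22 times the Control mean. The 14 alpha rows summed to 21, 24.8 and 26.1 CPM in Control and to 45.7, 44.2 and 34.1 CPM in PTN, a ratio of 1.72. The 22 gamma genes summed to 2640, 2010 and 2250 CPM in Control and to 2010, 2530 and 3000 CPM in PTN, a ratio of 1.09 with overlapping groups. In the beta and alpha sums every PTN library lay above every Control library, and PTN 3 was the lowest of the PTN libraries.

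Of the 22 beta genes 21 were tested. All 21 had a positive log2 fold change, beside 52.5% of all genes tested. Of them 8, or 38.1%, were called higher and none lower, beside 4.93% and 3.06% of all genes. In 18 of the 21, or 85.7%, every PTN value lay above every Control value, beside 15.8% of all genes. Among these 18 is Pcdhb13, which passed the filter only through its PTN libraries, so that the filter favoured its direction. Pcdhb2 and Pcdhb12, also among them, reached 10 counts in every PTN library but not in every Control library. PTN 3 was the lowest PTN library in 19 of the 21 genes, or 90.5%, as it was in 34.2% of all genes tested. At an unadjusted p under 0.05, 16 beta genes were higher and 0 lower, beside 1938 and 1611 of all 13161 genes tested. DESeq2 called 10 and limma-voom 9 higher and both none lower. Limma on FPKM called 8. The median log2 fold change of the 21 genes was 1.23, and 1.02 with the length trend removed, where again 8 were called and all 21 were positive. These genes are similar in sequence and are neighbours, so they are not independent of each other.

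**Figure D4:**
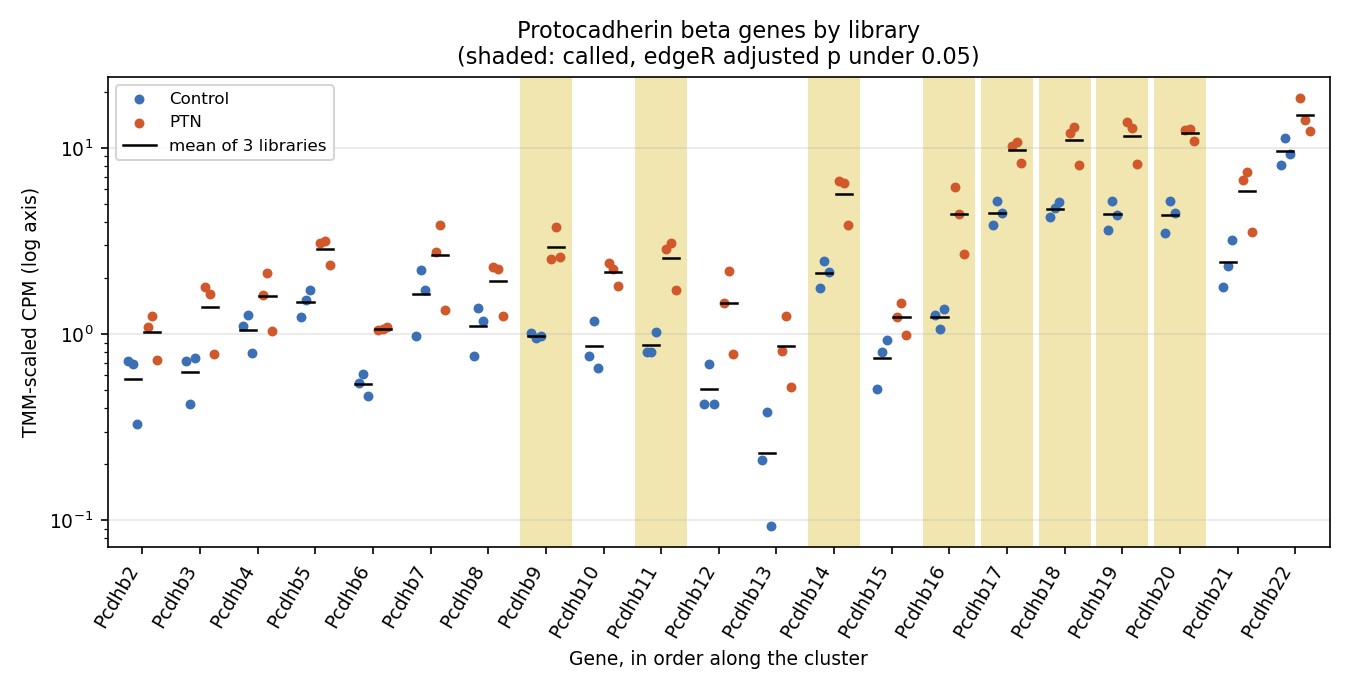
TMM-scaled CPM on a log axis of the 21 tested protocadherin beta genes, in their order along the cluster, in each Control (blue) and PTN (orange) library, with group means as black lines and shading where a gene was called. The PTN mean is above the Control mean at every gene, and the shaded run from Pcdhb16 to Pcdhb20 is the longest.

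The called beta genes were Pcdhb9, Pcdhb11, Pcdhb14 and the run of 5 neighbours from Pcdhb16 to Pcdhb20. Pcdhb20 had 83, 135 and 95 counts in Control and 322, 284 and 209 in PTN, or 3.51, 5.16 and 4.45 CPM against 12.5, 12.7 and 10.9 CPM. Its PTN libraries were close to each other, and its log2 fold change of 1.46 ± 0.21 (SE, n = 3 each, edgeR adjusted p = 0.00623) was the only beta call that held without any 1 library (adjusted p 0.00461 to 0.0401). Pcdhb16 differed most of the called genes, 3.62-fold, at 1.27, 1.07 and 1.36 CPM against 6.21, 4.41 and 2.7 CPM (log2 fold change 1.86 ± 0.35 SE, edgeR adjusted p = 0.0165). In its PTN libraries the spread was wide, but the lowest was well above the highest Control library. Pcdhb13, with 2 to 10 counts in Control and 10 to 28 in PTN, had as large a log2 fold change (1.86 ± 0.56 SE) but was not called (edgeR adjusted p = 0.078).

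The neighbours Pcdhb17, Pcdhb18 and Pcdhb19 had nearly the same levels. Pcdhb17 was at 3.85, 5.2 and 4.45 CPM in Control and at 10.2, 10.8 and 8.27 CPM in PTN (2.17-fold, edgeR adjusted p = 0.0162). Pcdhb18 was at 4.27, 4.74 and 5.1 CPM and at 12.1, 12.9 and 8.06 CPM (2.35-fold, edgeR adjusted p = 0.0155). Pcdhb19 was at 3.63, 5.2 and 4.35 CPM and at 13.8, 12.8 and 8.22 CPM (2.64-fold, edgeR adjusted p = 0.0138). In all 3 genes PTN 3 was lowest of the PTN libraries and still above Control. Pcdhb9 (2.99-fold, edgeR adjusted p = 0.0165), Pcdhb11 (2.91-fold, edgeR adjusted p = 0.0297) and Pcdhb14 (2.64-fold, edgeR adjusted p = 0.0229) completed the calls, from Control means of 0.984, 0.878 and 2.14 CPM.

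Most of these calls ended when a Control library was left out. The number of beta genes called was 1, 2 and 1 without Control replicate 1, 2 or 3, and 3, 7 and 15 without PTN replicate 1, 2 or 3, while the median log2 fold change stayed between 1.08 and 1.41 and all 21 remained positive. The adjusted p of Pcdhb9 was 0.0799, 0.0895 and 0.0913 without Control 1, Control 2 and Control 3. Without Control 1, Control 2, Control 3 and PTN 1 it was 0.105, 0.0678, 0.103 and 0.0766 for Pcdhb14 (0.0533 by limma on FPKM), and 0.0742, 0.0747, 0.0682 and 0.0558 for Pcdhb16. In the same order it was 0.0798, 0.05, 0.0976 and 0.0522 for Pcdhb17, and 0.0788, 0.07, 0.0757 and 0.0533 for Pcdhb18. For Pcdhb19 it was 0.07 without Control 1 and 0.0762 without Control 3. Pcdhb11 stayed called only without PTN 3, with 0.0584 to 0.129 without each of the other libraries.

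The other tested beta genes ran from a log2 fold change of 0.61 for Pcdhb4 to 1.86 for Pcdhb13. Pcdhb22 was the most abundant beta gene in Control with 2.01 FPKM on average, and stood at 3.25 FPKM in PTN (1.57-fold, edgeR adjusted p = 0.102, but 0.0421 without PTN 3), next to Pcdhb20 at 1.23 and 3.37 FPKM. The share of Pcdhb22 in all beta counts was 21.4, 22.4 and 20.5 percent in Control and 16.6, 12.8 and 16.5 percent in PTN, without overlap. Pcdhb22 and Pcdhb21 have fractional counts, so this share depends on how the counts were divided. Pcdhb16 took 3.34, 2.12 and 2.99 percent in Control and 5.56, 3.98 and 3.61 percent in PTN. The shares of Pcdhb11, Pcdhb14, Pcdhb19 and Pcdhb20 were likewise higher in every PTN library than in any Control library. The share of Pcdhb17 stayed between 9.11 and 11 percent in all libraries. Pcdhb1, the first gene of the cluster, is listed at 0 in every library. Pcdhb4, Pcdhb7 and Pcdhb8 were the 3 tested beta genes whose groups overlapped.

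Of the 14 alpha rows 6 were tested, 1 was called higher and none lower, beside 4.93% and 3.06% of all genes. All 6 had a positive log2 fold change, beside 52.5% of all genes, with a median of 0.83 (0.59 with the length trend removed). DESeq2 called 2 higher, limma-voom 1 and limma on FPKM 0, and none of them called any lower. Pcdhac2, the last variable exon of the cluster and a C-type isoform, took 60.9 to 73.2 percent of the alpha counts in the 6 libraries. It was at 13.4, 17.3 and 19 CPM in Control and at 30.5, 26.9 and 24.9 CPM in PTN, without overlap. The change was 1.66-fold, with a log2 fold change of 0.73 ± 0.18 (SE, n = 3 each, edgeR adjusted p = 0.0441). The adjusted p was 0.151, 0.125, 0.117, 0.131 and 0.0702 without Control 1, Control 2, Control 3, PTN 1 and PTN 2, 0.0868 with the length trend removed and 0.0685 by limma on FPKM.

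Pcdha12 followed at 3.22, 2.36 and 3.51 CPM in Control and 6.24, 7.01 and 4.31 CPM in PTN, without overlap and not called (edgeR adjusted p = 0.065). It was called by DESeq2 (adjusted p = 0.0247) and by edgeR without PTN 3 (adjusted p = 0.0225). Pcdhac1, the other C-type alpha isoform, was at means of 1.01 and 1.66 CPM (edgeR adjusted p = 0.244). Pcdha9 and the 2 rows that both carry the symbol Pcdha11 made up the tested rest, with log2 fold changes of 0.92, 0.72 and 1.09. The rows of Pcdha1 to Pcdha8 did not pass the filter. The closest to it among them was Pcdha4, with 6.49, 8.49 and 5.28 counts in Control and 39.7, 25.6 and 0 in PTN, whose PTN libraries lay on both sides of Control. On the other side of the count minimum stood Pcdhb13, with 5, 10 and 2 counts in Control and 21, 28 and 10 in PTN.

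All 22 gamma genes were tested and none was called in either direction, beside 7.99% of all genes. At an unadjusted p under 0.05, 2 were higher and 3 lower, beside 1938 and 1611 of all 13161 genes tested. DESeq2 called 0 higher and 1 lower, and limma-voom called 0. Log2 fold changes were positive in 13, or 59.1%, beside 52.5% of all genes, and negative in 9, with a median of 0.12. With the length trend removed 7 of the 22 were positive, the median was -0.09 and 1 gene was called lower. Pcdhgc3, a C-type isoform, had the highest level of all 102 genes. It was at 377, 282 and 320 FPKM in Control and at 292, 377 and 459 FPKM in PTN, with overlapping groups (95% interval of the log2 fold change -0.25 to 0.67, edgeR adjusted p = 0.509). PTN 3 was the highest library and Control 2 the lowest.

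The other C-type genes, Pcdhgc4 and Pcdhgc5, had lower values in every PTN library than in any Control library and were not called. Of the 22 gamma genes 3 had every PTN value below every Control value and 2 had every one above, beside 17.1% and 15.8% of all genes. Pcdhgc5 was at 31.7, 20.1 and 27.1 FPKM in Control and at 18.2, 14.2 and 17.3 FPKM in PTN, with -0.62 ± 0.17 (SE) as its log2 fold change (edgeR adjusted p = 0.0616). It was called lower with the length trend removed (-0.79, edgeR adjusted p = 0.0476), by DESeq2 (adjusted p = 0.0167) and without PTN 3 (edgeR adjusted p = 0.0383). Pcdhgc4 was at 8.22, 8.31 and 7.18 FPKM in Control and at 4.91, 4.15 and 6.35 FPKM in PTN (edgeR adjusted p = 0.152). As a share of all gamma counts Pcdhgc3 took 66.5, 66.1 and 66.3 percent in Control and 68.7, 69.6 and 71.9 percent in PTN, and Pcdhgc5 took 4.94, 4.66 and 5.32 percent and then 3.82, 2.55 and 2.74 percent. Neither pair of ranges overlapped, but both genes share exons with the rest of the cluster, so a share depends on how the counts were divided.

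**Figure D5:**
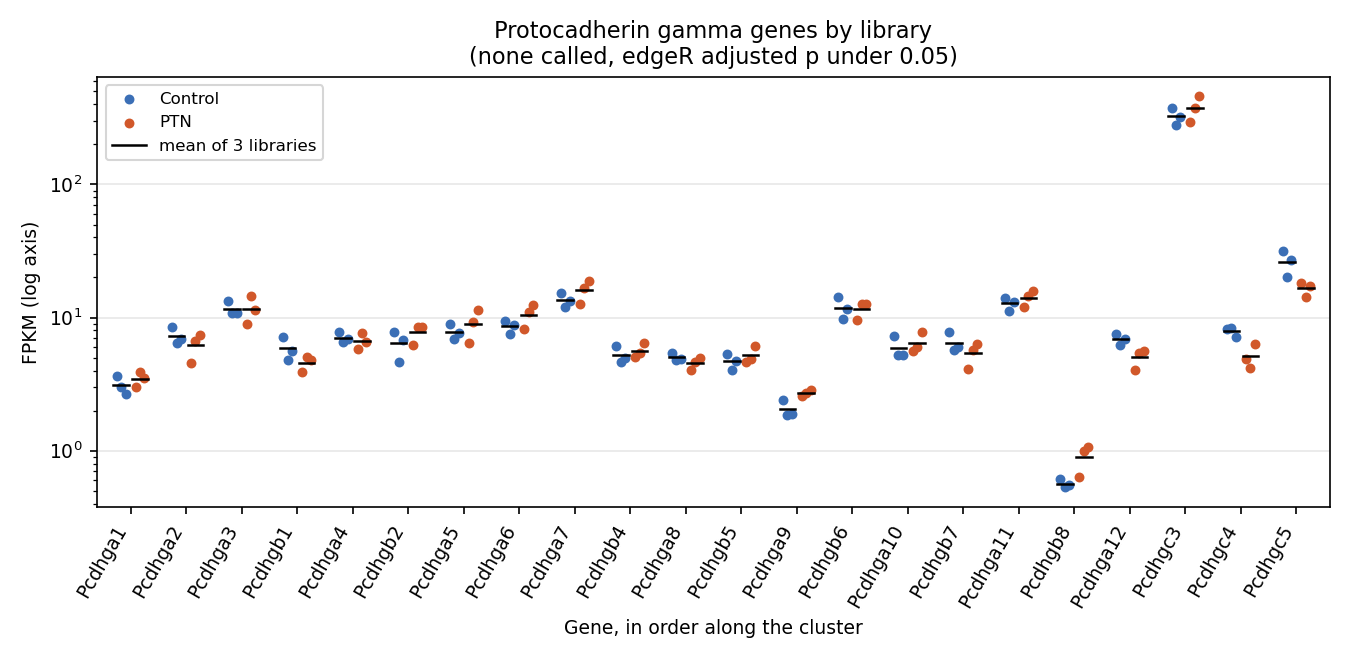
FPKM on a log axis of the 22 protocadherin gamma genes, in their order along the cluster, in each Control (blue) and PTN (orange) library, with group means as black lines. Pcdhgc3 stands far above the rest at 282 to 459 FPKM, and its neighbours Pcdhgc4 and Pcdhgc5 are lower in every PTN library than in any Control library, with no gene called.

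The 19 A-type and B-type gamma genes summed to 718, 556 and 608 CPM in Control and to 531, 686 and 730 CPM in PTN. PTN 3 was the highest library, as it was for Pcdhgc3, and the groups overlapped. Pcdhga7, the most abundant of them per length, was at 15.3, 12 and 13.3 FPKM and at 12.6, 16.8 and 18.9 FPKM (edgeR adjusted p = 0.378). Pcdhga12, which adjoins the C-type genes, was the A-type gene with the most negative value, -0.45 ± 0.17 (SE, edgeR adjusted p = 0.142), and its groups did not overlap. Pcdhgb8, annotated as a polymorphic pseudogene in GENCODE, had the most positive value of the cluster, 0.67 ± 0.27 (SE, edgeR adjusted p = 0.157), at 0.563 and 0.893 FPKM.

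None of the 8 tested Fat, Dachsous and Celsr genes was called, by edgeR, DESeq2 or limma-voom. At an unadjusted p under 0.05 only Celsr3 was higher and none lower, beside 1938 and 1611 of all 13161 genes tested. Of the 8 genes 4 had a positive log2 fold change, beside 52.5% of all genes, and 1 with the length trend removed. Fat1, a giant cadherin that binds actin regulators, was at 37.8, 31.2 and 38.8 FPKM in Control and at 37.2, 36.1 and 51.5 FPKM in PTN (95% interval of the log2 fold change -0.2 to 0.63). Dchs1, a Dachsous protein that is the ligand of Fat4, was at 28.4, 19.1 and 24.8 FPKM and at 29.1, 19.9 and 41.2 FPKM (edgeR adjusted p = 0.448). PTN 3 was the highest library for both genes. Fat4 itself was at 3.19, 2.9 and 3.34 FPKM in Control and at 2.41, 2.63 and 2.64 FPKM in PTN, so every PTN value lay below every Control value, beside 17.1% of all genes (-0.29 ± 0.13 SE on the log2 scale, edgeR adjusted p = 0.196).

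The Celsr genes did not share a direction. Celsr2 was at 34.3, 27.7 and 32.3 FPKM in Control and at 19.6, 31.7 and 26.4 FPKM in PTN (edgeR adjusted p = 0.307). Celsr1 varied most between PTN libraries, at 1.85, 7.31 and 3.09 FPKM against 5.64, 3.71 and 3.05 FPKM. Celsr3, the member known from axon tract formation, was at 0.71, 0.54 and 1.06 FPKM in Control and at 0.8, 1.53 and 1.06 FPKM in PTN (0.66 ± 0.21 SE on the log2 scale, edgeR adjusted p = 0.0952). Fat3 and Dchs2 had overlapping groups at means of at most 0.81 FPKM, and Fat2 had at most 3 counts in a library.

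Of 70 tested genes whose products work with cadherins edgeR called 5, or 7.14%, beside 7.99% of all genes. DESeq2 called 9 of them higher and 4 lower, beside 1087 and 765 of the 17167 genes in its fit. At an unadjusted p under 0.05 in edgeR, 15 were higher and 5 lower, beside 1938 and 1611 of all 13161 genes tested. At that p 3 of 9 tested catenin genes and relatives were higher and 1 lower. Of the 9 edgeR called 1 higher and none lower, with a list median log2 fold change of 0.2. That gene was Ctnna2, the neuronal alpha-catenin that links cadherins to actin, at 16.5, 22 and 20.2 CPM in Control and at 40.9, 43.7 and 35 CPM in PTN (2.04-fold, edgeR adjusted p = 0.00985, and 0.0611 without Control 3). The beta-catenin gene Ctnnb1 was at 804 and 845 CPM on average (edgeR adjusted p = 0.776). At an unadjusted p under 0.05 in edgeR, 2 of 5 tested kinases reported to act with protocadherins were higher and none lower. Of the 5 edgeR called only Ptk2b, the calcium-responsive relative of focal adhesion kinase, 3.12-fold higher. It was at 4.86, 3.33 and 3.46 CPM in Control and at 11.1, 10.1 and 15.2 CPM in PTN (edgeR adjusted p = 0.0067), and was called without any 1 library.

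Of 9 tested partners of Fat and Dachsous edgeR and limma-voom called 1 higher, Fjx1, and none lower. Over all genes tested edgeR called 4.93% higher and 3.06% lower. DESeq2 called 4 higher, Fjx1, Wwtr1, Lats2 and Tead1, and 0 lower, beside 1087 and 765 of the 17167 genes in its fit. At an unadjusted p under 0.05 in edgeR, 5 were higher and 0 lower, beside 1938 and 1611 of all 13161 genes tested. Fjx1, related to the Drosophila kinase that modifies Fat and Dachsous, was 1.99-fold higher, at 68.6, 51.4 and 60.7 CPM against 105, 95.3 and 161 CPM (edgeR adjusted p = 0.03). Its adjusted p was 0.0709, 0.111, 0.122 and 0.055 without Control 1, Control 2, Control 3 and PTN 1, and 0.0523 with the length trend removed. In the planar polarity list edgeR called 1 of 11 tested genes lower and none higher. At an unadjusted p under 0.05 in edgeR, 1, Fzd3, was higher and 1 lower. The Frizzled receptor gene Fzd6 was 1.93-fold lower, at 8.79, 11.5 and 9.31 CPM in Control and 4.23, 6.47 and 4.68 CPM in PTN. Its edgeR adjusted p was 0.0391, but 0.0898, 0.133, 0.12 and 0.121 without Control 1, Control 2, Control 3 and PTN 1, and 0.104 by limma on FPKM.

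Of 9 tested genes of proteases that cut cadherins edgeR and limma-voom called 1 lower, Mmp14, and none higher. Over all genes tested edgeR called 3.06% lower and 4.93% higher. DESeq2 called Ncstn lower as well, and none higher. At an unadjusted p under 0.05 in edgeR, 1 was higher and 2 lower, beside 1938 and 1611 of all 13161 genes tested. Mmp14, a membrane-bound metalloproteinase, was 1.52-fold lower, at 178, 161 and 168 CPM against 99.7, 114 and 118 CPM. Its edgeR adjusted p was 0.0324, but 0.0991, 0.0857, 0.126 and 0.104 without Control 1, Control 2, Control 3 and PTN 1. Adam10, the main sheddase of N-cadherin and gamma protocadherins, was at 202 and 286 CPM on average (edgeR adjusted p = 0.179).

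The 12 genes of protocadherin promoter choice, among them the insulator protein Ctcf, cohesin subunits and Smchd1, were all tested and none was called by edgeR, DESeq2 or limma-voom, nor had any an unadjusted p under 0.05 in edgeR. Their list median was 0.36. Ctcf was at 89.5 and 94.3 CPM on average (edgeR adjusted p = 0.771), and the smallest p belonged to the cohesin gene Stag2 (edgeR adjusted p = 0.285, but 0.0426 without PTN 3). Of 9 tested WAVE complex genes, which carry signals of protocadherins to actin, edgeR and limma-voom called none, and only Cyfip2 had an unadjusted p under 0.05 and was called by DESeq2. It was lower in every PTN library, at 66.9, 60.5 and 65.8 CPM against 42.3, 51.9 and 44.8 CPM (edgeR adjusted p = 0.0759, but 0.0386 by DESeq2 and 0.029 with the length trend removed). Of 4 tested nectin and afadin genes edgeR and limma-voom called none. At an unadjusted p under 0.05 in edgeR, 2 were higher and none lower, beside 1938 and 1611 of all 13161 genes tested. DESeq2 called Nectin1 and Nectin3 higher, beside 1087 of the 17167 genes in its fit. Nectin3, a junction protein, was at 61.3, 88.7 and 85.1 CPM against 140, 126 and 101 CPM (edgeR adjusted p = 0.075, but 0.0221 by DESeq2 and 0.0297 without PTN 3). Of 2 tested transcriptional repressors of cadherins edgeR and limma-voom called neither, and Zeb2 was higher at an unadjusted p under 0.05 and by DESeq2. Its levels were 43.4, 78.3 and 69.4 CPM in Control and 215, 130 and 87.2 CPM in PTN (edgeR adjusted p = 0.0662, but 0.00371 by DESeq2, 0.045 with no filter and 0.0138 without PTN 3), without overlap.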

How the data were processed

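The series has 6 RNA-seq libraries, 3 per group, grouped by title. The authors deposited expected counts and FPKM values per gene and library. The sources used here do not give the aligner, counting program or build. Per the labels' protocols, libraries came from column-purified total RNA and a SMARTER mRNA kit. Column names were matched to titles by group initial and replicate number.

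Expected counts were rounded and fitted with edgeR 4.0.16 in R 4.3.3 (filterByExpr, TMM factors 0.993 to 1.01, quasi-likelihood test, no covariate), with Benjamini-Hochberg adjustment over all 13161 genes tested and calls at an adjusted p under 0.05. The SE is the log2 fold change divided by the square root of F. Libraries held 19267764 to 26341745 counts, which leaves weakly expressed members with few counts each. The FPKM values, as deposited, served for levels between genes. The fits were tested on simulated data. Alternatives used DESeq2 1.42.0, limma 3.58.1 (FPKM with a pseudocount of 0.1), other scalings and filters, a replicate block and single libraries left out. Gene length came from the count to FPKM ratio, and its loess trend was removed per library.

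Members, lists and tests were chosen with earlier results of these data known. Named with values were all called members, the 3 of highest mean FPKM in each class, the smallest p where none was called, and of each partner list up to 4 called genes or else the smallest p. Other members were singled out after their values were seen.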

Additional observations from a re-analysis of the deposited data

How the results depend on the processing

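Scaling by DESeq2 size factors or library totals, a filter of 10 counts in 3 libraries, no filter, truncated counts and limma-voom each left all 13 called members called, and the median log2 fold change of all genes was 0.036 and 0.026 under the 2 scalings against 0.03. DESeq2 called 2 classical cadherins higher (1 in the fit reported) and 1 member lower, a clustered protocadherin, and with the length trend removed 2 members were called lower, 1 of them a clustered and 1 another protocadherin. Of the other protocadherins 1 was called higher with the length trend removed, by limma on FPKM and with the replicate block, each against 2. The labels do not say if equal replicate numbers mark a shared culture. Same-numbered deviations from the group means correlated at -0.506, 0.362 and -0.00494, and only replicate 2 correlated best with its own number. With 3 libraries per group these correlations cannot decide if the numbers pair the libraries. The block left 9 of the 13 members called and 726 against 1052 of all genes. With the block the adjusted p was 0.0704 for Cdh13, 0.0525 for Pcdh19, 0.104 for Pcdhac2, 0.0591 for Pcdhb11, 0.108 for Mmp14 and 0.0509 for Fzd6. Limma on FPKM and the fit with the length trend removed each left 10 of the 13 called. Without 1 library, calls ranged over 1 to 25 higher and 0 to 2 lower for all members, 0 to 2 for classical cadherins higher, 1 to 18 higher and 0 to 2 lower for clustered and 0 to 4 higher for other protocadherins. No called gene changed sign. Among genes that were not called, the log2 fold changes of Fat1, Dchs1, Pcdh1, Pcdh10, Cdh4 and Cdh20 were -0.21, -0.05, -0.11, -0.11, -0.11 and -0.09 with the length trend removed. Leaving out 1 library moved Pcdh1 over -0.19 (without PTN 3) to 0.24, with -0.11 without Control 2, Pcdh10 over -0.04 (without PTN 2) to 0.3 and Cdh4 over -0.08 (without PTN 3) to 0.32. The cause was not tested. Summed FPKM gave PTN to Control ratios of 1.75, 2.19 and 1.08 for alpha, beta and gamma genes. Several alpha and beta genes rest on few counts, which limits what single genes can show.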
